A study of Mus musculus with 6 samples.

Results

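Genes that sense, carry and make lactate were examined in cultured macrophages from wild-type and Ahrr-deficient mouse fetal liver. They were chosen by gene symbol from a list of 8: the receptor genes Hcar1 and Hcar2, the transporter genes Slc16a1, Slc16a3 and Slc16a7, the transporter chaperone gene Bsg, and the lactate dehydrogenase genes Ldha and Ldhb. Of these, 7 were found among the 16111 genes of the annotated table, and all 7 had enough counts to be tested. No row carried the symbol Ldhb. Every feature of the raw table with at least 10 counts over the 6 libraries had an annotated row, so Ldhb either had fewer than 10 counts in all or was not among the counted features, and it was not analysed here. The list was drawn up with the contrast between the genotypes known, in which Hcar1 had shown the largest rise. The differences between genotypes given for the 7 genes are therefore descriptions of these libraries and carry no test of their own.

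Both groups were C57BL/6 RCC fetal liver cells of stage E13.5, grown for 5 weeks with 2% of the macrophage growth factor GM-CSF, after which the non-adherent cells were collected. The wild-type (WT) and Ahrr-deficient (AhRR-/-) groups each had 3 libraries, numbered by mouse. Ahrr encodes a repressor of AhR, the aryl hydrocarbon receptor, which turns on genes when it binds a ligand. The labels do not describe the targeted allele.

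Lactate is made from pyruvate by lactate dehydrogenase, whose A subunit (Ldha) favours lactate formation and whose B subunit (Ldhb) favours the reverse reaction. It crosses the plasma membrane with a proton through monocarboxylate transporters: MCT1 (Slc16a1), MCT2 (Slc16a7) and MCT4 (Slc16a3), the last of which is known as the exporter of highly glycolytic cells. Basigin (Bsg) brings MCT1 and MCT4 to the cell surface. Outside the cell lactate is sensed by the Gi-coupled receptor HCAR1, best known from fat cells, whereas its close relative HCAR2 responds to the ketone body beta-hydroxybutyrate and to niacin and is well known in macrophages and neutrophils.

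Total counts ranged from 3556106 in Ahrr-deficient replicate 1 to 41668336 in Ahrr-deficient replicate 2. Values below are counts per 1000000 counts of the library (CPM) unless stated otherwise. Ahrr itself lay between 4.29 and 5.32 CPM in the wild-type libraries and between 1.21 and 2.57 CPM in the Ahrr-deficient ones, so reads assigned to it remained in all 3. All 11 listed macrophage markers were present, with a summed level of 23424 to 29018 CPM in wild-type and 18577 to 25578 CPM in Ahrr-deficient cells, most of it Lyz2. Among them Csf1r was called lower, and Mrc1 and Itgax higher (log2 fold changes -0.65, 0.59 and 1.70). Over all 11408 tested genes, 2232 differed at an edgeR adjusted p under 0.05, which is 19.6% of them, and 9.62% were called higher in Ahrr-deficient cells. Ahrr-deficient replicate 1 stood apart: without it, 3857 genes were called (32.6% of those tested).

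The sequence in front of the transcription start was available for 5 of the 8 listed genes, in RefSeq on GRCm38.p6. It is shown for Hcar1, the gene with no count in wild-type cells, and for the transporter and dehydrogenase genes Slc16a1, Slc16a3 and Ldha, which were higher in the same 2 Ahrr-deficient libraries. Each window starts 250 bases before the RefSeq start and leaves out bases that GENCODE places in an exon. Capitals mark GCGTG, the core of the site bound by AhR with its partner ARNT, and ACGTG, the core of the hypoxia response element, on either strand. CACGTG, the E-box, holds ACGTG on both strands. The windows are chr5:123880021-123880253 on the minus strand for Hcar1, and chr3:104638414-104638663, chr11:120948817-120949052 and chr7:46845554-46845803 on the plus strand for Slc16a1, Slc16a3 and the more upstream of 2 RefSeq starts of Ldha.
Hcar1: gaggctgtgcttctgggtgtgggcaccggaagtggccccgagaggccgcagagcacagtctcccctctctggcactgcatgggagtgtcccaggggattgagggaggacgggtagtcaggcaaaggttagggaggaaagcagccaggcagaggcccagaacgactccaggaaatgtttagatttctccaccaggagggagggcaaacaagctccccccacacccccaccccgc
Slc16a1: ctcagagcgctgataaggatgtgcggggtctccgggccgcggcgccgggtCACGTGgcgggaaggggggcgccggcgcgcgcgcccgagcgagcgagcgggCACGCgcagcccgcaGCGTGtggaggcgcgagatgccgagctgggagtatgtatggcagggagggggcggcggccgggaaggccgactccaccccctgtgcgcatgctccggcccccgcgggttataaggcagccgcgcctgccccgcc
Slc16a3: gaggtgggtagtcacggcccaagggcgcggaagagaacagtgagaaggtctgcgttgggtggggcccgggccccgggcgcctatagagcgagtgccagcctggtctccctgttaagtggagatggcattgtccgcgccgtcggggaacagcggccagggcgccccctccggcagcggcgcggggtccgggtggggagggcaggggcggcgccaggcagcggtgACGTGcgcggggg
Ldha: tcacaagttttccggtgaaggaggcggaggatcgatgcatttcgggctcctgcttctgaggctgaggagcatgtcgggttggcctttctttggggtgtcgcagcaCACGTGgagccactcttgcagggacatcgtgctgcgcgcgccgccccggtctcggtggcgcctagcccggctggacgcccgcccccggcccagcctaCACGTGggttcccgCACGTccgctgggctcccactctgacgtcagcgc
The Hcar1 window held neither core. The Slc16a1 window held GCGTG at 2 places and ACGTG at 1 place, an E-box. The Slc16a3 window held ACGTG at 1 place, and the Ldha window held it at 3 places, 2 of them E-boxes. With the exon bases left in, the 250 bases of Slc16a3 held ACGTG at 2 places, and those of Hcar1 still held neither core. When the 50 bases after the start were added, GCGTG occurred 1 time for Hcar1. It then occurred 2 times for Slc16a1, 0 times for Slc16a3 and 2 times for the more upstream start of Ldha. The window of the second RefSeq start of Ldha, not shown, held GCGTG at 1 place and no ACGTG. The window of Ldhb, also not shown, held GCGTG at 1 place and no ACGTG. Among the 250 bases before all 32851 RefSeq starts in the table, 28.2% held GCGTG, 16.6% held ACGTG and 6.02% held CACGTG. The share of G and C was 62.7% in the Hcar1 window, 76.4% for Slc16a1, 73.3% for Slc16a3 and 67.2% for the Ldha window shown. The background was not matched for this share. A match of these letters is a description of the sequence and not evidence of binding.

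The receptor genes were both higher in Ahrr-deficient cells. Hcar1 (ENSMUSG00000049241.5, chromosome 5, 123876736 to 123880020, GRCm38, minus strand) had 0 counts in wild-type replicates 1, 2 and 3, where 3 counts would be 0.137, 0.476 and 0.420 CPM. It had 14, 240 and 82 counts in the Ahrr-deficient libraries 1 to 3, or 3.94, 5.76 and 8.29 CPM. Every Ahrr-deficient library therefore lay above every wild-type floor. The exact Poisson 95% interval was 2.15 to 6.61 CPM in replicate 1, 5.05 to 6.54 CPM in replicate 2 and 6.60 to 10.3 CPM in replicate 3, so replicates 1 and 2 could not be told apart by counting error alone. These intervals and floors cover counting error only, since reads carry no molecular identifiers. Divided by the mean wild-type floor of 0.344 CPM, the measured level was 11.4 in replicate 1, 16.7 in replicate 2 and 24.1 in replicate 3. These ratios leave out the counting error of the Ahrr-deficient libraries and are not strict lower bounds.

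Hcar2 (ENSMUSG00000045502.6, chromosome 5, 123863570 to 123865499, minus strand) was present in both genotypes. It had 43.8, 37.3 and 35.4 CPM in the wild-type libraries and 51.5, 206 and 142 CPM in the Ahrr-deficient ones. The groups did not overlap, but Ahrr-deficient replicate 1 lay close to the wild-type values and far below the other Ahrr-deficient libraries. From a wild-type mean of 38.9 ± 4.4 CPM it went to an Ahrr-deficient mean of 133 ± 77.5 CPM (SD, n = 3 each), 3.42 times as high, and the fitted log2 fold change was 1.73 (SE 0.38). Without Ahrr-deficient replicate 1 it was 2.06, and without Ahrr-deficient replicate 2 it was 1.28. The gene was no longer past the threshold without wild-type replicate 1, 2 or 3 or without Ahrr-deficient replicate 3, with log2 fold changes of 1.8, 1.74, 1.62 and 1.68. In these bulk samples, a different share of cells that express a gene and a different amount of its RNA per cell cannot be told apart.

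Hcar1 and Hcar2 are neighbouring genes with the same orientation, 11.2 kb apart, each a single exon in the annotation, with no other gene of the table between them. Their transcripts shared no stretch of 75 bases, the read length, with each other or with any other annotated transcript. In Ahrr-deficient cells Hcar1 made up a small part of the receptor RNA: 4.3%, 1.62% and 3.32% of the summed Hcar1 and Hcar2 level per kb of exon in replicates 1, 2 and 3. Its share was highest in replicate 1, where Hcar2 was lowest.

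**Figure D1:**
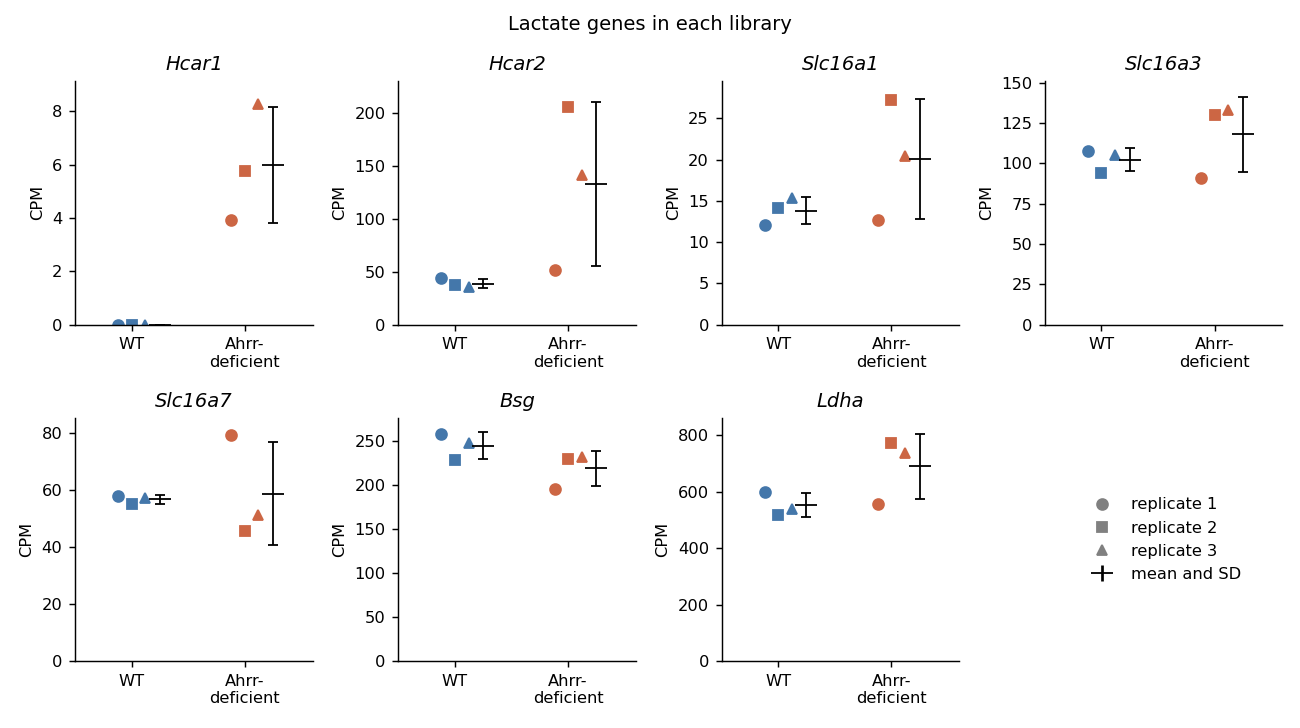
Level in CPM of the 7 measured lactate genes in each library, one panel per gene, with symbols for replicates and a bar for the mean with its SD (n = 3 per genotype). Hcar1 is at 0 in all 3 wild-type libraries and at 3.94 to 8.29 CPM in the Ahrr-deficient ones, and Ahrr-deficient replicate 1 (circle) lies near or within the wild-type values for Hcar2, Slc16a1 and Ldha.

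The 5 genes of the table on either side of the receptor genes were compared to see whether the difference extended along the chromosome. Of these 10 genes 8 were tested, and 2 were past the threshold, 1 in each direction, against 19.6% of all tested genes. Denr, which encodes a factor for translation re-initiation and starts 27.2 kb from the start of Hcar1, rose from 35.2 ± 3.2 CPM to 50.2 ± 9.6 CPM (log2 fold change 0.47, SE 0.13, edgeR adjusted p 0.0339). Ccdc62 fell from 2.15 to 1.03 CPM (log2 fold change -1.05, SE 0.28, edgeR adjusted p 0.0300). Clip1, Zcchc8, Rsrc2, Kntc1, Vps37b and Abcb9 did not pass, with log2 fold changes from -0.42 for Abcb9 to 0.76 for Kntc1. The calls for Denr and Ccdc62 were lost in each of the 5 fits that left out a library other than Ahrr-deficient replicate 1, in which edgeR called 0 of the neighbours and 2 or 3 had an unadjusted p under 0.05. DESeq2 called Denr alone.

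**Figure D2:**
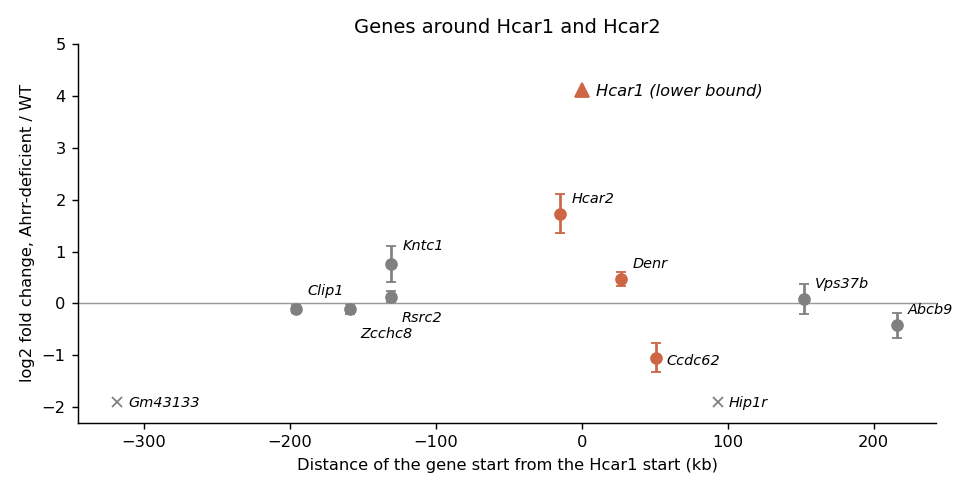
Log2 fold change between Ahrr-deficient and wild-type cells for genes around Hcar1 against the distance of their start from the start of Hcar1 in kb, with bars for the SE; coloured points passed the threshold and grey points did not. Hcar1 is drawn as a triangle at 4.12, the log2 ratio of its Ahrr-deficient mean to the mean wild-type floor. It is labelled a lower bound but leaves out the counting error of the Ahrr-deficient libraries. Hcar2 lies at 1.73, and crosses at the bottom mark Gm43133 and Hip1r, which had too few counts and have no value.

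None of the 3 transporter genes passed the threshold. Slc16a1 (ENSMUSG00000032902.1, chromosome 3, 104638668 to 104658462, plus strand) had 12.1, 14.1 and 15.3 CPM in wild-type libraries 1 to 3, and 12.7, 27.2 and 20.4 CPM in Ahrr-deficient libraries 1 to 3. Ahrr-deficient replicates 2 and 3 lay above all wild-type libraries and replicate 1 lay within their range. The log2 fold change was 0.59 (SE 0.22), and 0.76 without Ahrr-deficient replicate 1.

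Slc16a3 (ENSMUSG00000025161.16, chromosome 11, 120948480 to 120960868, plus strand) had 108, 94.3 and 105 CPM in wild-type libraries 1 to 3, and 91.1, 130 and 133 CPM in Ahrr-deficient libraries 1 to 3. Replicate 1 lay below the wild-type range and the other Ahrr-deficient libraries above it, so the groups overlapped. The log2 fold change was 0.14 (SE 0.12), and 0.27 without Ahrr-deficient replicate 1.

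Slc16a7 (ENSMUSG00000020102.15, chromosome 10, 125219270 to 125389465, minus strand) went the other way in the same libraries. It had 58.0, 55.1 and 57.2 CPM in wild-type, which was the narrowest spread of the 7 genes relative to the mean among those with counts in that group, and 79.3, 45.5 and 51.3 CPM in Ahrr-deficient libraries 1 to 3. Ahrr-deficient replicate 1 lay above and the other Ahrr-deficient libraries below all wild-type libraries. The fitted log2 fold change was -0.07 (SE 0.19), although the Ahrr-deficient mean of 58.7 CPM was slightly above the wild-type mean of 56.7 CPM. It was -0.33 without Ahrr-deficient replicate 1 and 0.10 without Ahrr-deficient replicate 2. Its exons overlap Gm47862 on the opposite strand, and 0.891% of its 75-base stretches occur in that gene's transcript, so reads of the genes could be mixed to that extent.

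Per kb of exon, Slc16a3 was the main transporter gene in both genotypes. It made up 70.8% ± 1.7 (SD, n = 3) of the summed Slc16a1, Slc16a3 and Slc16a7 level in wild-type and 69.6% ± 4.9 (SD, n = 3) in Ahrr-deficient cells. The share of Slc16a7 was 17.6%, 18.2% and 17.2% in wild-type and 25.1%, 11.2% and 12.8% in Ahrr-deficient replicates 1, 2 and 3. That of Slc16a1 was 9.83%, 12.5% and 12.3% in wild-type and 10.7%, 17.9% and 13.6% in Ahrr-deficient replicates 1, 2 and 3. Ahrr-deficient replicates 2 and 3 thus had more of Slc16a1 and less of Slc16a7 than any wild-type library, and replicate 1 did not.

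Bsg (ENSMUSG00000023175.15, chromosome 10, 79704491 to 79711969, plus strand) had 259, 229 and 248 CPM in wild-type libraries 1 to 3, and 196, 230 and 232 CPM in Ahrr-deficient libraries 1 to 3. The groups overlapped by a small margin, since wild-type replicate 2 lay just below Ahrr-deficient replicates 2 and 3. The log2 fold change was -0.23 (SE 0.09) and the gene did not pass the threshold. The ratio of Bsg to the summed level of the 3 transporter genes, per kb, was 5.13, 4.93 and 4.87 in wild-type and 4.05, 3.68 and 3.77 in Ahrr-deficient replicates 1, 2 and 3. This ratio, chosen after the values were seen, did not overlap between the groups. Ahrr-deficient replicate 1 lay below wild-type here, but was the nearest to it of the Ahrr-deficient libraries. The sum includes Slc16a7 (MCT2), although Bsg is described above for MCT1 and MCT4 only. In replicate 1 Slc16a7 was 6.70 CPM per kb, against 4.65 to 4.90 in wild-type, which lowers the ratio there. A ratio without Slc16a7 was not computed.

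Ldha (ENSMUSG00000063229.15, chromosome 7, 46841475 to 46855627, plus strand) had 600, 516 and 539 CPM in wild-type libraries 1 to 3, and 557, 773 and 737 CPM in Ahrr-deficient libraries 1 to 3. Ahrr-deficient replicates 2 and 3 lay above every wild-type library and replicate 1 within their range. The means were 551 ± 43.6 and 689 ± 116 CPM, and the log2 fold change of 0.25 (SE 0.13) did not pass the threshold. Without Ahrr-deficient replicate 1 it was 0.36. Of the 75-base stretches of Ldha 2.69% occur in other annotated transcripts, among them Ldha-ps2, so a small part of its reads is uncertain.

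Counted together, 2 of the 7 measured genes (28.6%) were past the threshold, Hcar1 and Hcar2, both higher, against 19.6% of all tested genes, and nothing is read from that difference since the list was chosen on this contrast. The median log2 fold change was 0.25, against 0.01 over all tested genes. Groups did not overlap for the same 2 genes, against 36.6% of all tested genes. Without Ahrr-deficient replicate 1 the count was 6 of 7, against 32.6% of all genes: Slc16a1, Slc16a3 and Ldha were then called higher and Slc16a7 lower, and only Bsg was not called. For 5 of the 7 genes Ahrr-deficient replicate 1 was the Ahrr-deficient library nearest to the wild-type mean on the scale of log2(CPM + 0.5). That library was also the shallowest, and the part of its depth in these values was not tested; with all libraries thinned to its total, 2 of 7 were called.

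Levels of different genes were compared per kb of annotated exon. In wild-type cells the order was Ldha with 167 ± 13.2 CPM per kb (SD, n = 3), Bsg with 135 ± 8.5, Hcar2 with 20.1 ± 2.3, Slc16a3 with 19.2 ± 1.3, Slc16a7 with 4.79 ± 0.13, Slc16a1 with 3.13 ± 0.36 and Hcar1 with none. All neighbours in this order were separated by their ranges over 3 libraries except Hcar2 and Slc16a3. In Ahrr-deficient cells the order of the means was the same, from 208 ± 34.9 CPM per kb (SD, n = 3) for Ldha and 121 ± 11.1 for Bsg through 68.9 ± 40.1 for Hcar2 and 22.2 ± 4.4 for Slc16a3 to 4.96 ± 1.53 for Slc16a7, 4.54 ± 1.65 for Slc16a1 and 1.83 ± 0.67 for Hcar1. Here Slc16a7 and Slc16a1 overlapped, and Slc16a7 was above Slc16a1 in replicate 1 (6.70 against 2.86) but below it in replicates 2 (3.84 against 6.15) and 3 (4.33 against 4.62), so their order turned without replicate 1. Hcar2 lay above Slc16a3 in every Ahrr-deficient library, but below it in wild-type replicate 3 (18.4 against 19.8). Hcar1 in its highest library, with 2.52 CPM per kb, remained below the lowest Slc16a1 value of 2.74 CPM per kb in wild-type replicate 1.

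**Figure D3:**
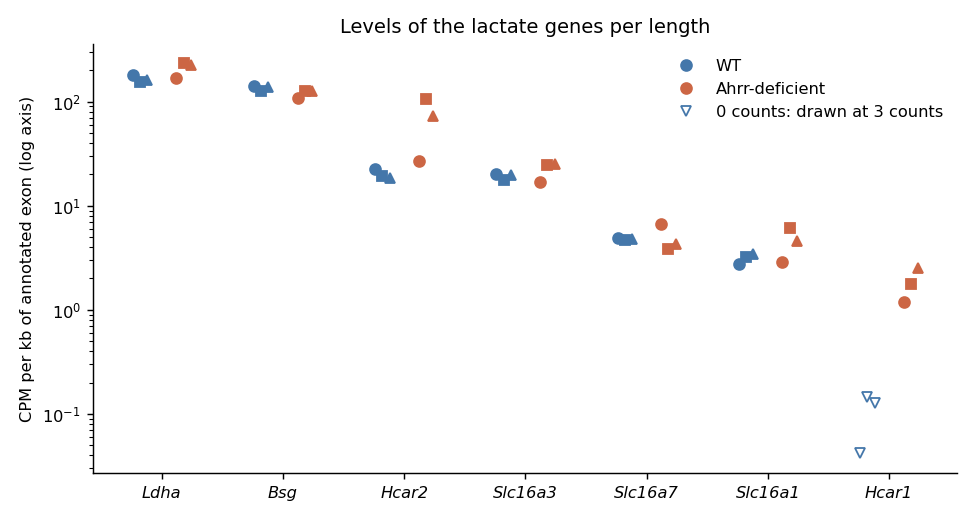
Levels in CPM per kb of annotated exon (log axis) of the 7 lactate genes in each library, ordered by the wild-type mean; circles, squares and triangles are replicates 1, 2 and 3. Open triangles mark wild-type libraries with 0 counts of Hcar1, drawn at the level of 3 counts. Ldha and Bsg lie above 100 CPM per kb, and Hcar1 at 1.20 to 2.52 CPM per kb in Ahrr-deficient cells.

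The receptors were then set beside other receptors for metabolites and nucleotides. Of 13 such genes 9 had a row and 5 of those could be tested. By edgeR 4 of the 5 rose in Ahrr-deficient cells, against 9.62% of all tested genes called higher. With no filter on low counts, 4 of the 9 were called, against 12.9% of all genes in either direction. Nothing is read from these shares, since the list was chosen with earlier results of these data known. Ffar2, a receptor for short-chain fatty acids, had 2.51, 1.11 and 2.38 CPM in wild-type libraries 1 to 3, and 2.53, 9.50 and 9.10 CPM in Ahrr-deficient libraries 1 to 3 (log2 fold change 1.82, SE 0.38, edgeR adjusted p 0.0136). Ffar4, a receptor for long-chain fatty acids, rose as well (log2 fold change 1.09, SE 0.27, edgeR adjusted p 0.0251). Adora2b, an adenosine receptor, had 3.01, 1.43 and 3.22 CPM in wild-type libraries 1 to 3, and 6.19, 6.07 and 6.98 CPM in Ahrr-deficient libraries 1 to 3 (log2 fold change 1.18, SE 0.23, edgeR adjusted p 0.00983). P2ry14, the receptor for UDP-glucose, had 83.0, 75.1 and 82.1 CPM in wild-type libraries 1 to 3, and 88.9, 184 and 160 CPM in Ahrr-deficient libraries 1 to 3 (log2 fold change 0.79, SE 0.21, edgeR adjusted p 0.0284). Ahrr-deficient replicate 1 lay close to wild-type for Ffar2, Ffar4 and P2ry14, as for Hcar2, and with the other Ahrr-deficient libraries for Adora2b. Gpr35 did not pass with edgeR (log2 fold change -0.39, SE 0.14, edgeR adjusted p 0.0722), but was called lower by DESeq2 and, with edgeR, without wild-type replicate 3 or without Ahrr-deficient replicate 1. Gpr132, a receptor also described as a lactate sensor in macrophages, had 3 to 32 counts a library and was not tested. The count was 1 of the tested receptors, Adora2b, without wild-type replicate 1 or without Ahrr-deficient replicate 2 or 3, 2 without wild-type replicate 2 and 2 with thinned libraries.

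HCAR1 and HCAR2 act through Gi proteins, which lower cyclic AMP. Of 15 tested genes of Gi coupling, adenylyl cyclases and arrestins 5 passed, 3 higher and 2 lower, or 33.3% against 19.6% of all tested genes. Nothing is read from that difference, since this list was also chosen with earlier results of these data known. Gnai3, the gene of a Gi alpha subunit, rose from 152 to 215 CPM (log2 fold change 0.42, SE 0.08, edgeR adjusted p 0.0103), and Gnai2, the gene of another, did not pass (log2 fold change -0.32, SE 0.10, edgeR adjusted p 0.0573) but was called lower by DESeq2, by limma-voom and with upper-quartile scaling. The cyclase genes Adcy3 and Adcy4 moved in opposite directions, Adcy3 up (log2 fold change 0.78, SE 0.18, edgeR adjusted p 0.0203) and Adcy4 down (log2 fold change -1.82, SE 0.40, edgeR adjusted p 0.0165). Among G gamma genes Gng12 rose (log2 fold change 0.34, SE 0.09, edgeR adjusted p 0.0322) and Gng2 fell (log2 fold change -0.65, SE 0.10, edgeR adjusted p 0.00519). The arrestin genes Arrb1 and Arrb2 did not pass. The list's median log2 fold change was -0.09, and 2 genes were called without wild-type replicate 1 or 3 or without Ahrr-deficient replicate 2, and 3 without wild-type replicate 2, without Ahrr-deficient replicate 3 or with thinned libraries.

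Beyond the 3 lactate transporter genes, 16 other genes of monocarboxylate and pyruvate transport were listed, of which 11 were in the table and 6 were tested. Of these 3 fell and none rose past the threshold, against 9.95% of all tested genes called lower. With no filter on low counts, the same 3 were called of 11. The list was chosen with earlier results of these data known, so nothing is read from that share. Slc16a10, which encodes an aromatic amino acid transporter of the same family, had 155, 153 and 184 CPM in wild-type libraries 1 to 3, and 126, 68.2 and 82.6 CPM in Ahrr-deficient libraries 1 to 3 (log2 fold change -0.93, SE 0.20, edgeR adjusted p 0.0150). Emb encodes embigin, the chaperone of MCT2, and had 76.7, 59.4 and 115 CPM in wild-type libraries 1 to 3, and 54.3, 51.9 and 61.3 CPM in Ahrr-deficient libraries 1 to 3 (log2 fold change -0.65, SE 0.18, edgeR adjusted p 0.0372). The groups of Emb overlapped, since wild-type replicate 2 lay below Ahrr-deficient replicate 3. Slc16a13 fell (log2 fold change -0.57, SE 0.14, edgeR adjusted p 0.0255), and its call was lost with offsets for GC content, with thinned libraries, and without any 1 of the wild-type libraries or Ahrr-deficient replicate 3. The genes of the mitochondrial pyruvate carrier, Mpc1 and Mpc2, had log2 fold changes of 0.24 (SE 0.12) and -0.14 (SE 0.10) and did not pass. Without wild-type replicate 3 or Ahrr-deficient replicate 3 edgeR called 0 of the 6, with 3 at an unadjusted p under 0.05, and without wild-type replicate 1 or 2 it called 1, while DESeq2 on all libraries called the same 3.

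Enzyme genes of pyruvate and lactate metabolism, and genes of their regulators, were examined next. Of 16 tested genes of pyruvate and lactate metabolism 7 passed, 4 higher and 3 lower, or 43.8% against 19.6% of all tested genes. With no filter on low counts, 6 of 17 were called, against 12.9% of all genes. This list too was chosen with earlier results of these data known, so nothing is read from these differences. All 7 encode subunits or regulators of the pyruvate dehydrogenase complex, which turns pyruvate into acetyl-CoA, and so do most of the tested genes of the list. Of its 5 tested subunit genes, Dlat, Dld and Pdha1 rose, with log2 fold changes of 0.40, 0.39 and 0.32 and edgeR adjusted p-values of 0.0216, 0.0125 and 0.0303. Pdhb (log2 fold change 0.15, SE 0.10, edgeR adjusted p 0.317) and Pdhx (log2 fold change 0.30, SE 0.11, edgeR adjusted p 0.0818) did not pass. Dld had 101, 86.7 and 96.1 CPM in wild-type libraries 1 to 3, and 123, 141 and 126 CPM in Ahrr-deficient libraries 1 to 3, with no overlap. Pdp1, the gene of a phosphatase that activates the complex, rose (log2 fold change 0.61, SE 0.14, edgeR adjusted p 0.0183), and Pdp2, the gene of the other such phosphatase, did not pass (log2 fold change 0.51, SE 0.16, edgeR adjusted p 0.0512).

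The kinases that inactivate the complex did not move alike. Pdk1, Pdk2 and Pdk4 fell, whereas Pdk3 did not pass (log2 fold change 0.25, SE 0.11, edgeR adjusted p 0.149). Pdk2 had 34.7, 31.9 and 35.6 CPM in wild-type libraries 1 to 3, and 27.8, 22.7 and 25.4 CPM in Ahrr-deficient libraries 1 to 3 (log2 fold change -0.53, SE 0.11, edgeR adjusted p 0.0114). Pdk1 fell (log2 fold change -0.29, SE 0.09, edgeR adjusted p 0.0490) and its groups overlapped. Pdk4 had 50, 14 and 29 counts in wild-type and 1, 2 and 4 counts in the Ahrr-deficient libraries 1 to 3. The fall passed the threshold (edgeR adjusted p 0.00297), but its size depended on single libraries. Pooled over libraries, the rate was 20.7 times as high in wild-type, with an exact 95% interval of 9.66 to 52.9 for counting error only. It was 7.07 times as high (2.92 to 22.3) without Ahrr-deficient replicate 2, the deepest library, and 39.6 times (13.1 to 196) without Ahrr-deficient replicate 3. The ratio of the group mean CPM was 11.7. Pkm, the gene of the enzyme that makes pyruvate, had 661, 589 and 609 CPM in wild-type libraries 1 to 3, and 616, 899 and 887 CPM in Ahrr-deficient libraries 1 to 3, the same arrangement of libraries as Ldha (log2 fold change 0.29, SE 0.15, edgeR adjusted p 0.189). The count of 7 depended on the processing: with offsets for GC content 4 were called (Dlat, Pdk1, Pdk2 and Pdk4), with thinned libraries 3, and without Ahrr-deficient replicate 1 11. It was 1 without wild-type replicate 1, 2 without wild-type replicate 2 or 3, and 3 without Ahrr-deficient replicate 2 or 3.

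**Figure D4:**
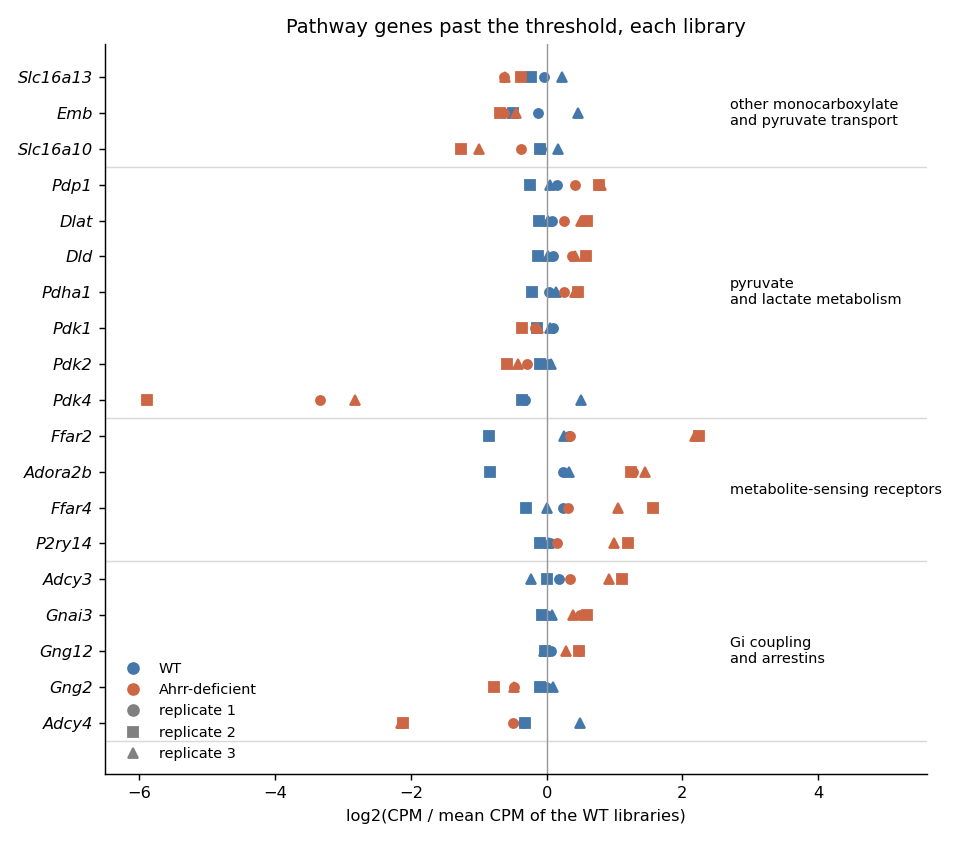
Genes of the 4 pathway lists that passed the threshold, with the log2 ratio of each library's CPM to the mean CPM of the wild-type libraries; colours are genotypes and symbols are replicates. The Ahrr-deficient circles (replicate 1) lie nearest to the wild-type mean for 11 of the 19 genes, among them Ffar2, P2ry14 and Slc16a10.

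Genes with a pattern like that of Hcar1 were ranked by Pearson correlation of log2 CPM (prior count 2) over the 6 libraries, among the 10027 tested genes that averaged 50 counts or more a library. The highest were Runx1 (r = 0.998), Atp8b4 (r = 0.997), Il12rb2 (r = 0.996), Cdc42se1 (r = 0.996) and Med17 (r = 0.995). Runx1, the gene of a haematopoietic transcription factor, had 231, 205 and 227 CPM in wild-type libraries 1 to 3, and 342, 366 and 389 CPM in Ahrr-deficient libraries 1 to 3. Med17 was not called between the genotypes (log2 fold change 0.14, SE 0.08, edgeR adjusted p 0.234). The correlations are over the same 6 libraries that were compared and describe likeness of pattern only. By rank correlation 246 genes tied at the highest places, at 0.941. Hcar1 had 0 counts in wild-type replicates 1, 2 and 3 and so had no order among them, and 6 libraries separate few patterns.

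Markers of other cell types were summed in each library. Of 8 adipocyte markers only Plin1 and Retn were in the table, with a summed level of 7.62 to 12.7 CPM in wild-type and 1.08 to 5.62 CPM in Ahrr-deficient cells. Plin1, a lipid droplet coat gene also found in lipid-laden macrophages, made up nearly all of it and fell (log2 fold change -2.23, SE 0.52, edgeR adjusted p 0.0193), while the defining genes Adipoq and Lep had no row. Of 10 neutrophil markers S100a8, Ltf and Cxcr2 were in the table, and Ly6g, Mpo and Elane had no row. They summed to 11.6 to 26.2 CPM in wild-type and 2.83 to 9.84 CPM in Ahrr-deficient cells. Most of this was Cxcr2, which fell (log2 fold change -2.25, SE 0.49, edgeR adjusted p 0.0158), and S100a8 and Ltf were not tested. Dendritic cell markers summed to 57.6 to 62.1 CPM in wild-type and 72.0 to 93.2 CPM in Ahrr-deficient cells, nearly all of it Clec9a (log2 fold change 0.49, SE 0.12, edgeR adjusted p 0.0256), with Flt3 and Ccr7 without a row. The other dendritic cell markers with a row were not higher: Zbtb46 lay at 5.01 to 5.88 CPM in wild-type and 4.15 to 4.92 CPM in Ahrr-deficient libraries, and Xcr1 at no more than 0.420 CPM in any library. No marker of mast cells and basophils (9 listed) or of eosinophils (4 listed) had a row. Erythroid and megakaryocyte markers summed to at most 3.64 CPM, hepatocyte markers to at most 0.864 CPM and fibroblast and endothelial markers to at most 10.0 CPM in any library. Itga2b, the only tested erythroid and megakaryocyte marker, fell (log2 fold change -1.10, SE 0.23, edgeR adjusted p 0.0147). The part of any of these cell types, adipocytes and dendritic cells among them, in the receptor values was not tested.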

How the data were processed

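RNA sequencing libraries of 3 wild-type and 3 Ahrr-deficient macrophage cultures were compared. Libraries were made from 100 ng of polyA RNA and read as single 75 bp reads, per the labels' protocols. The authors deposited raw counts per feature without identifiers (53465 features) and, for the 16111 features with at least 10 counts in total, a normalized signal with identifiers. The submitters' processing notes name CASAVA 1.8.2, fastp 0.20.0, STAR 2.7.10b, SAMtools 1.16.1, R 4.3.1, DESeq2 1.40.2 and the mm10 build. The annotation and the use of strand in counting are not given in the sources used here. Each deposited signal value times the size factor recomputed from the raw counts was a whole number of reads (100% of values, within 0.001 reads). These reads matched the raw rows one to one, which joined identifiers to counts. Features without an identifier held 0.0232% to 0.0511% of a library's counts and entered only its total.

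Genotypes were compared by edgeR's quasi-likelihood method (edgeR 4.0.16 and R 4.3.3; TMM factors; low genes removed by filterByExpr) in a model that held genotype alone. The p-values are two-sided, with Benjamini-Hochberg adjustment over 11408 genes and a threshold of 0.05. The script was checked on simulated counts. SEs come from the F statistic. Levels per kb use the union of exons of GENCODE mouse release 21 (GRCm38), in which 16088 identifiers were found. Tables were made with Python 3.11.15 and pandas 2.3.3. Alternatives were RLE and upper-quartile scaling, no filter, a mean of 50 counts, DESeq2 1.42.0, limma-voom (limma 3.58.1), the replicate block, thinning to the smallest total and each library left out. Offsets for GC content (lowess span 0.3), with and without the block, and the Pdk4 ratio without single libraries were added after seeing the data. The genes and lists were chosen with earlier results of these data known. Named were all measured lactate genes, every gene of a pathway list past the threshold, 5 genes on either side of Hcar1 and Hcar2, and the 5 genes most like Hcar1. Other genes were named after their values were seen. Total counts differed 11.72-fold, so 3 counts were 0.072 to 0.844 CPM. The labels number a mouse for each library but say no more of the cultures, and p-values measure the spread between these libraries.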

Additional observations from a re-analysis of the deposited data

How the results depend on the processing

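Hcar1 and Hcar2 were the 2 lactate genes called under RLE and upper-quartile scaling, both filters, DESeq2, the replicate block, thinning and the GC offsets, and limma-voom added Slc16a1. Of 235 recomputed values 165 changed neither in sign nor in call, or, for counts, by no more than 1.5 times, or for the Pdk4 ratio stayed within its interval. No pairing by replicate number was seen. The correlations of deviations of same-numbered libraries were -0.169, 0.071 and 0.129, and 1 of 3 wild-type libraries correlated best with its own number. Deviations from a mean of 3 libraries depend on each other, so this check cannot exclude a pairing. With the replicate block 1390 genes were called over all genes, 3 of pyruvate and lactate metabolism, 2 metabolite-sensing receptors, 2 of other transport (Slc16a13 lost) and 0 neighbours of Hcar1 (edgeR, 2 at an unadjusted p under 0.05). Thinning gave 1198, 3, 2, 2 and 0 (edgeR, 1 at an unadjusted p under 0.05), and 3 genes of Gi coupling. The GC offsets gave 4 genes of pyruvate and lactate metabolism, and with the replicate block 1198 genes over all, 2 of pyruvate and lactate metabolism, 2 receptors, 2 of Gi coupling and 0 neighbours (edgeR, 2 at an unadjusted p under 0.05). DESeq2 and a mean of 50 counts each gave 1 neighbour. With 1 library left out, counts ran from 694 to 3857 over all genes, 1 to 6 for the lactate genes, 0 to 3 for the neighbours, 0 to 4 for other transport, 1 to 11 for pyruvate and lactate metabolism, 1 to 5 for receptors and 2 to 6 for Gi coupling. The log2 fold change of Slc16a7 then ran from -0.33 to 0.10, changing sign without Ahrr-deficient replicate 2 or 3. Without division by length, Slc16a3 made up 59.1% of transporter counts in wild-type and 59.6% in Ahrr-deficient cells. The mean share of Slc16a7 depended most on this step. It was 17.7% in wild-type and 16.3% in Ahrr-deficient cells per length, and 32.8% and 30.3% without division by length. The planned share of Ldhb was not run, since Ldhb had no row. Apart from the lost libraries and genes, the cause of these changes was not tested. Depth limits genes with few counts in the shallow libraries, such as Hcar1, Pdk4 and Gpr132.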
